A study of Homo sapiens with 6 samples.

Results

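The ATAC-seq peaks described here were detected in naive human embryonic stem (nES) cells treated with dm-αKG and had no counterpart in the peak list of the control cells. They were chosen by the deposited peak calls: a peak of the combined count table belonged to the set when it overlapped an interval of the dm-αKG list by at least 1 bp and no interval of the control list. Of the 171517 peaks in the table, 18703 (10.9%) met this rule. A further 132751 (77.4%) overlapped both lists, and 20063 (11.7%) overlapped the control list only. The cells were of the H9 line, an established human embryonic stem cell line, grown in tt2iLGö medium, which holds PD0325901, CHIR99021, Gö 6983 and human leukemia inhibitory factor. They were freed of mouse feeder cells by incubation on gelatin, plated on laminin, and grown with 4 mM dm-αKG or without it for 24 h. Per treatment, 3 libraries were made, and the labels name the treatment of the control libraries as DMSO, whereas the treatment protocol gives 0 mM dm-αKG. All 6 libraries came from 1 cell line and 1 experiment, so the spread between libraries does not include differences between lines or repeats of the experiment.

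ATAC-seq uses a transposase that cuts and tags DNA where chromatin is open, so that reads pile up at promoters, enhancers and other sites that nucleosomes leave free. A peak list keeps the sites at which this pile-up passes a threshold and recurs between replicates, which makes the presence of a site in a list depend on its distance to that threshold as well as on its accessibility. α-Ketoglutarate is an intermediate of the tricarboxylic acid (TCA) cycle and the co-substrate of the dioxygenases that demethylate histones and oxidize 5-methylcytosine, and dm-αKG is an ester of it that enters cells. Among the factors that bind open sites, AP-1 dimers of JUN and FOS proteins respond to growth factor and stress signals, NRF2 pairs with small MAF proteins on antioxidant genes, and forkhead (FOX) proteins include factors of endoderm and of the insulin pathway.

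The following sequences show the motifs that the set carried more often than the other peaks. They are given from 5′ to 3′ on the plus strand of hg38, for peaks that were called more accessible, and capitals mark a match to AP-1 (TGACTCA), NRF2 (GCTGANTCA) or FOX (TGTTTAC) on either strand. Where a peak lies in an untranslated exon, only the motif and its flanks are shown. The site given as near FOXA2 lay 194176 bp from its transcript start. The nearest protein-coding transcript start to the site given as near KDM4A was that of PTPRF. KDM4A was linked to this site only by the regulatory domains described below.
Intron of FGF14, chr13:102369436-102369635, an NRF2 match that contains an AP-1 match: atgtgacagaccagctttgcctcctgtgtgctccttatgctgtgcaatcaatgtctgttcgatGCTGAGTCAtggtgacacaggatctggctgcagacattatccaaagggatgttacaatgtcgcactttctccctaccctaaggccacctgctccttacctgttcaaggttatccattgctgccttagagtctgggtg
Intron of GCLC, chr6:53615768-53615967, NRF2: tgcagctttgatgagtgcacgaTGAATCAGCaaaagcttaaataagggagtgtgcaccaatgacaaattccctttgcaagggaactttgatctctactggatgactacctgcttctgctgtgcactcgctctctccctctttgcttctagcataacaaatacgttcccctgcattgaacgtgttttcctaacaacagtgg
Near FOXA2, chr20:22390296-22390495, NRF2: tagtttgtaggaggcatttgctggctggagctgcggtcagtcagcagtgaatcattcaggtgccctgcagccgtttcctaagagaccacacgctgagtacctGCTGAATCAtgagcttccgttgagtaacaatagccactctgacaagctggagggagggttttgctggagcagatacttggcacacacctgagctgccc
Exon of VTI1A, chr10:112815716-112815745, AP-1: gagaggacatgaTGAGTCAgtcacgagagc
Exon of GAS2L1, chr22:29311076-29311105, AP-1: tgtgcgccagagTGACTCAcaccctgggaa
Intron of PTPRF near KDM4A, chr1:43582296-43582495, AP-1: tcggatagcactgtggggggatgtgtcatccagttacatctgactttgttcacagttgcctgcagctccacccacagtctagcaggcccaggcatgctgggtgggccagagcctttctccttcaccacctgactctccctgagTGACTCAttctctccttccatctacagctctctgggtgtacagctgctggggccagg
Intron of ERBB2, chr17:39703480-39703679, a pair of FOX matches: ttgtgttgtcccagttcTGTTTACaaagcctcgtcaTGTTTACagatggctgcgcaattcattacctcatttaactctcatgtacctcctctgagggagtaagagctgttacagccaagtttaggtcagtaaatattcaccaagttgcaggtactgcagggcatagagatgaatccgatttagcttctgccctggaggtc
Intron of ATP6V0C, chr16:2515275-2515474, FOX: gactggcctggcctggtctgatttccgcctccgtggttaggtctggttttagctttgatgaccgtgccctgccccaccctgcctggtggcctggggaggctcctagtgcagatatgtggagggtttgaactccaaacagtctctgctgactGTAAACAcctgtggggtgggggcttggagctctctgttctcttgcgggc
Near SNAI1, chr20:49999050-49999249, FOX: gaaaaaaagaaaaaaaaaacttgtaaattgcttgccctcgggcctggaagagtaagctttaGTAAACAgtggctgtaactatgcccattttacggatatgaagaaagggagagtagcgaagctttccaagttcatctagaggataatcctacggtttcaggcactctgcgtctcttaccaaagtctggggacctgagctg
Near FOXO1, chr13:40495644-40495843, FOX: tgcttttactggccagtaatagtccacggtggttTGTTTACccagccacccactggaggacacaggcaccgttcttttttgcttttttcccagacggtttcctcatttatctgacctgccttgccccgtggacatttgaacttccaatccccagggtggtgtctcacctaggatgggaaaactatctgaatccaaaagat

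Total counts over all peaks ranged from 16159058 to 23771142 in control and from 13025674 to 26828622 with dm-αKG. Correlations of log2 library-scaled counts between libraries of the same treatment lay between 0.96 and 0.976, and between treatments from 0.933 to 0.944. The labelled cell type was checked on promoters, and 9 of 10 naive marker genes had at least 1 peak within 1 kb of their start. DPPA3 was the naive marker without one. Promoter peaks were also present for 5 of 5 primed, 6 of 7 trophoblast, 4 of 4 primitive endoderm and 4 of 5 fibroblast markers, so that a promoter peak alone did not separate these cell types. The median of the mean normalized counts was 350 for the naive promoters and between 147 and 273 for the other 4 marker lists.

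Sites of the dm-αKG list only were weakly accessible in both treatments, and their counts were moderately higher in all dm-αKG libraries. The median normalized count of a member was 26.8, 27.1 and 27.9 in the control libraries and 35.1, 35.9 and 35.9 in the dm-αKG libraries, whereas peaks of both lists had medians between 84.6 and 85.3. The medians of the control and the dm-αKG libraries therefore did not overlap. As the lists were made from these libraries, the direction of this difference, and of the read shares that follow, was set by the selection. Reads in the set took 2.99 to 3.07% of the counts of each control library and 3.95 to 4.09% of the counts of each dm-αKG library. In cell populations such as these, a larger share of cells with an open site and a more open site in each cell cannot be told apart.

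The fold changes of the set formed a single broad distribution, with no separate group at high values. The median log2 fold change was 0.40, with a median standard error of 0.297 per peak, and 80% of the members lay between -0.09 and 0.96. Counts were higher with dm-αKG at 15980 members (85.4%) and lower at 2723 (14.6%). Because the lists were made from the same libraries, the direction follows from the selection, and these values describe the set without testing it. Peaks of the control list only moved the other way, with medians of 35.9 in control and 26.3 with dm-αKG and a median log2 fold change of -0.47, and peaks of both lists centred on 0.02.

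**Figure D1:**
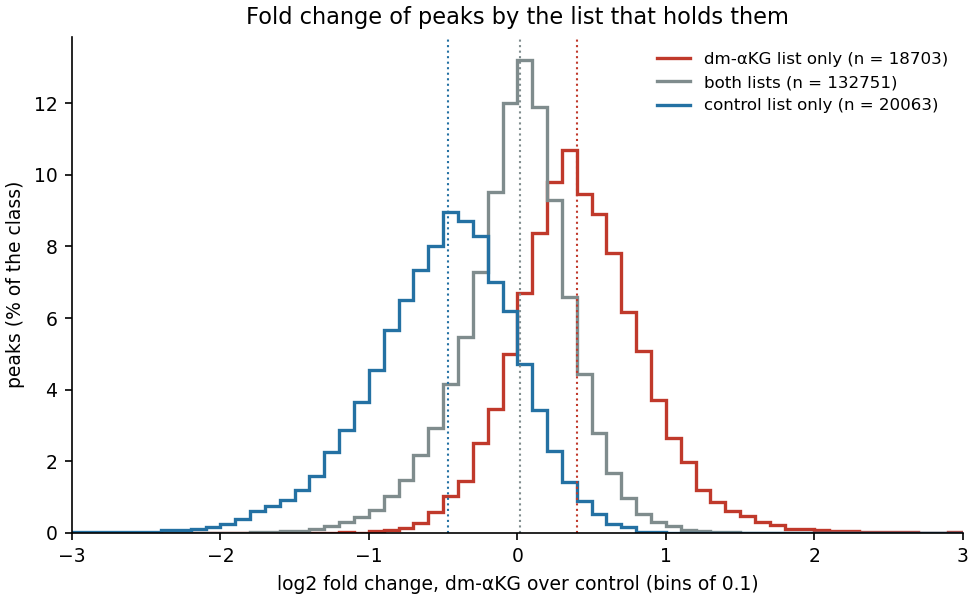
Distribution of log2 fold changes (dm-αKG over control, bins of 0.1) as the percentage of peaks in each class, with dotted lines at the class medians of 0.40 (dm-αKG list only), 0.02 (both lists) and -0.47 (control list only). Values beyond the axis are counted in the outermost bins. The 3 distributions overlap, and most of the dm-αKG-only peaks lie between 0 and 1.

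Few members differed strongly between treatments. With edgeR's quasi-likelihood test over all peaks, an adjusted p below 0.01 and a log2 fold change above 1, 975 members (5.21%) were called more accessible, where 0.782% of all peaks were called in that direction. These 975 made up 72.7% of the 1342 peaks called more accessible in the whole table. A single member (0.00535%) was called less accessible, against 1.96% of all peaks. Of the control list only, 2097 peaks (10.5%) were called less accessible, a larger share than that of the set in its own direction. Without the fold limit, 1545 members (8.26%) were higher at an adjusted p below 0.01, against 3.34% of all peaks, and 11 (0.0588%) were lower, against 6.54%. All 3 dm-αKG values lay above all 3 control values at 6310 members (33.7%), against 15.5% of all peaks, and below them at 219 (1.17%), against 16.9%. These shares rest on the same contrast as the selection and carry no evidence of their own. DESeq2, with the same limits, called 501 members more accessible, of which 498 were also called by edgeR. In the whole table it called 793 peaks in that direction. Without dm-αKG replicate 1, edgeR called 664 members among 1061 peaks, so the 72.7% holds for the full edgeR fit only.

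The called members were low in control. Their median normalized count was 18.8 in control and 44.7 with dm-αKG, and the control mean was under 10 at 131 of them (13.4%). Their median log2 fold change was 1.26, with 10% below 1.05 and 10% above 1.72. The treatments did not overlap at 961 of the 975. The remaining 17727 members, called in neither direction, had medians of 27.5 and 34.7 and a median log2 fold change of 0.37.

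The 8 called members with the smallest adjusted p and no overlap between treatments lay in 8 different genes. The smallest adjusted p belonged to the AP-1 site in the untranslated exon sequence of VTI1A, a SNARE protein of the Golgi. Its normalized counts were 61.7, 68.2 and 64.4 in control and 199, 235 and 208 with dm-αKG, and the log2 fold change was 1.71 ± 0.15 (SE; adjusted p = 4.79e-16, edgeR). The transcript start of TCF7L2, a nuclear effector of WNT signalling, was the nearest of a protein-coding gene, at 134431 bp. The site in ERBB2, which encodes a receptor tyrosine kinase of the EGF receptor family, lay 386 bp from a transcript start and held the pair of FOX matches shown above. Its counts were 15.2, 19.7 and 13.4 in control and 80.3, 96.2 and 65.9 with dm-αKG, and the log2 fold change was 2.30 ± 0.26 (SE; adjusted p = 2.79e-11, edgeR). Every dm-αKG value at ERBB2 was above 3 times the highest control value.

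QTRT2, which encodes a subunit of the enzyme that places queuosine in tRNA, had a member 119 bp from a transcript start (chr3:114076858-114077057). Its mean rose from 15.8 ± 1.85 to 79.9 ± 13.5 (SD, n = 3), a log2 fold change of 2.30, and it held none of the 14 motifs searched. In the intron of PLXNA4, a semaphorin co-receptor, a member 129577 bp from the transcript start rose from 26.4 ± 9.09 to 99.2 ± 12.6 (SD, n = 3). At GAS2L1, which links actin and microtubules, the AP-1 site had 76.9, 68.2 and 48.6 in control and 174, 167 and 166 with dm-αKG. The members in the introns of GJB7 (a connexin), VPS13B (a lipid transfer protein) and ATP6V0C (a subunit of the vacuolar proton pump) rose by 1.84, 1.61 and 1.41 on the log2 scale. In all 8, the lowest dm-αKG library was above the highest control library, as the rule for naming them required.

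**Figure D2:**
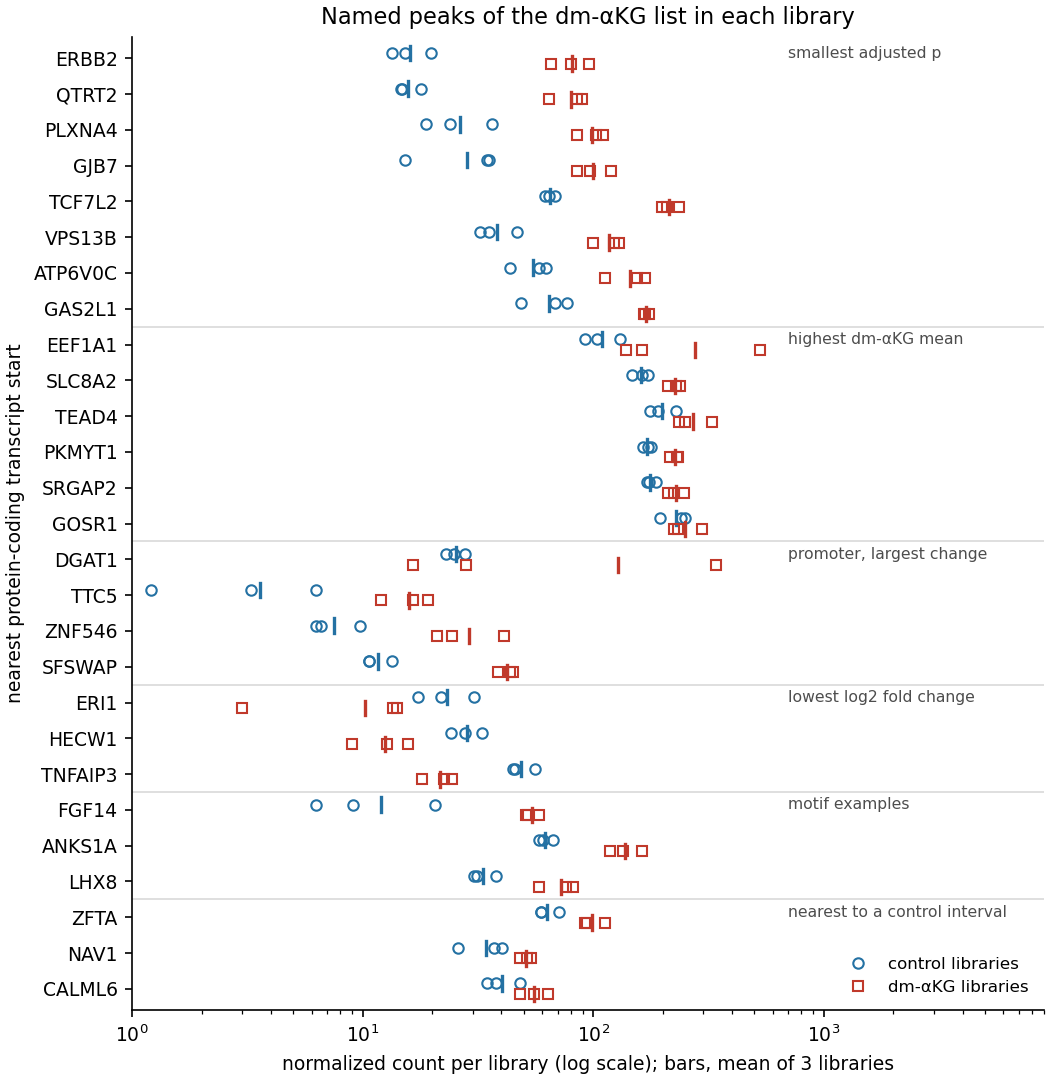
Normalized counts (log scale) of the named members in each library, labelled by the nearest protein-coding transcript start, with blue circles for the 3 control libraries, red squares for the 3 dm-αKG libraries and bars for the means. At DGAT1, 1 dm-αKG library (341) stands apart while the others (28.2 and 16.5) lie near the control values (23.0 to 27.9).

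The most accessible members had log2 fold changes near the set median of 0.40, except at an lncRNA start (0.15) and at EEF1A1 (1.48). The 6 with the highest mean with dm-αKG lay at or near SRGAP2, TEAD4, KREMEN2, SLC8A2, EEF1A1 and this lncRNA start, and 1 of them was called. The lncRNA site lay 40 bp from that start. Its nearest protein-coding transcript start was that of GOSR1, at 126528 bp. At TEAD4, a transcription factor of the Hippo pathway that acts in trophoblast, the member 23 bp from a transcript start had 229, 177 and 191 in control and 326, 251 and 235 with dm-αKG. The treatments did not overlap, and the log2 fold change was 0.47 ± 0.11 (SE; adjusted p = 0.00132, edgeR), below the fold limit. The members at SLC8A2, a sodium and calcium exchanger, and at KREMEN2, an antagonist of WNT signalling, had log2 fold changes of 0.49 and 0.39.

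Single libraries decided a few values. At EEF1A1, which encodes a translation elongation factor, the counts were 92.1, 104 and 130 in control and 529, 139 and 162 with dm-αKG. The log2 fold change of 1.48 (adjusted p = 1.45e-09, edgeR) was 0.48 and not called without dm-αKG replicate 1, and 1.35 and not called by DESeq2. At a coding exon of HSF1, the heat shock factor, 921 bp from a transcript start of DGAT1, the counts were 25, 23.0 and 27.9 in control and 341, 28.2 and 16.5 with dm-αKG. The treatments overlapped there, and the log2 fold change of 2.55 (adjusted p = 2.05e-08, edgeR) was -0.15 without dm-αKG replicate 1. A library above 30 normalized counts and more than 3 times every other library was found at 2 members for dm-αKG replicate 1, at 1 member for dm-αKG replicate 3 and at 0 members for the other 4 libraries. The 2 members of dm-αKG replicate 1 were EEF1A1 and HSF1, and why that library was high there was not tested.

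Among called members within 1 kb of a transcript start, the 6 with the largest log2 fold change comprised the sites at ERBB2, QTRT2 and HSF1 and those at TTC5, ZNF546 and SFSWAP. At SFSWAP, a regulator of splicing, the counts were 10.7, 10.7 and 13.4 in control and 43.7, 38.5 and 44.9 with dm-αKG. At ZNF546, a zinc finger gene, they were 6.26, 6.58 and 9.72 in control and 24.4, 41.1 and 21.0 with dm-αKG. At TTC5, a cofactor of p53, they were 6.26, 3.29 and 1.21 in control and 16.5, 19.2 and 12 with dm-αKG. The call at TTC5 was lost without control replicate 2 (log2 fold change 1.96) or 3 (1.74) and without dm-αKG replicate 1 (2.03) or 2 (1.93), and the call at ZNF546 was lost without dm-αKG replicate 2 (1.63).

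The largest fitted change belonged to the only member with a count of 0 in all control libraries, a site between genes 168390 bp from TYRP1 (chr9:12516949-12517148). Its raw counts were 0, 0 and 0 in control and 12, 9 and 3 with dm-αKG. Taking 3 counts over the control libraries as what a total of 0 allows, dm-αKG over control was 8.89-fold. This figure takes the few dm-αKG counts as exact, and the member was singled out by its 0 counts, so it is not a lower limit. At the other end, the single member called less accessible lay in the lncRNA gene WAKMAR2, 6691 bp from TNFAIP3, an inhibitor of NF-κB signalling. Its counts were 45.6, 55.9 and 44.9 in control and 24.4, 18.0 and 22.5 with dm-αKG, and the log2 fold change was -1.16 (adjusted p = 0.00140, edgeR), although it stood in the dm-αKG list and in no control interval. This call was lost without control replicate 2 (-1.04) or dm-αKG replicate 2 (-1.05). The members with the next lowest values, at HECW1 (-1.11) and ERI1 (-1.07), did not pass the test.

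The strength of a site in the dm-αKG list went along with how far its counts differed, both being measured in the same libraries. The median member had a fold enrichment of 6.57 over the background and a −log10 q of 35.5 in that list, against 9.87 and 108 for the peaks of both lists, and 7171 members (38.3%) reached the highest score of 1000, against 88.9%. When the set was split into 4 equal bins by −log10 q, 105 members (2.25%) were called more accessible in the weakest bin (below 24.0) and 544 (11.7%) in the strongest (above 50.0). The median log2 fold change was 0.34, 0.30, 0.40 and 0.55 from the weakest to the strongest bin. Of the weakest bin, 35.4% lay within 1 kb of a transcript start, and of the strongest 11.7%. By mean count, in contrast, the share called was 4.26, 5.56, 6.61 and 4.43% from the lowest to the highest of 4 bins.

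**Figure D3:**
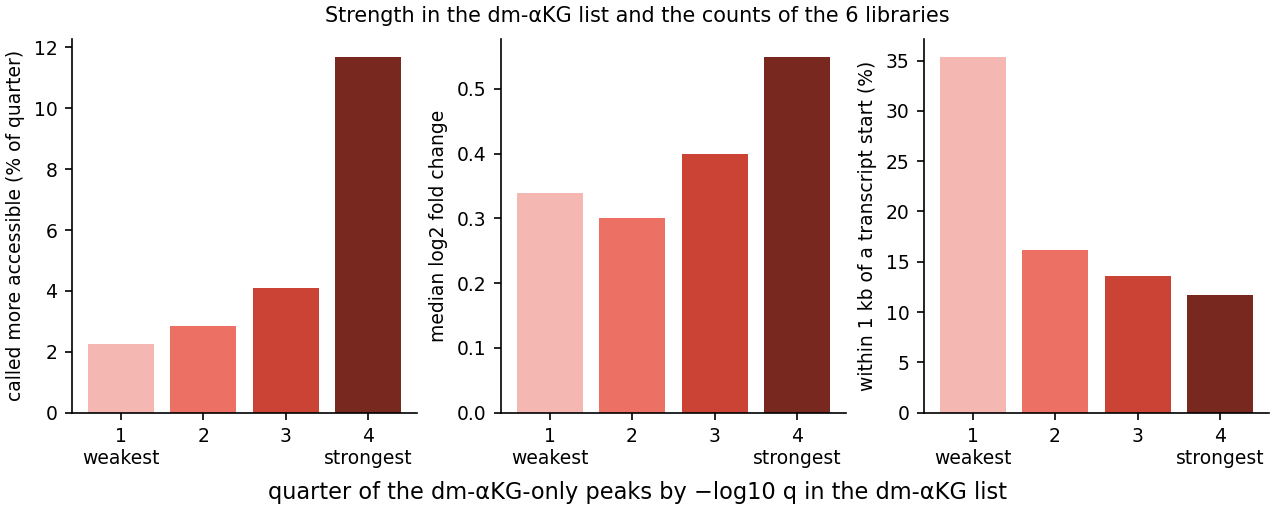
Members called more accessible (percentage), median log2 fold change and percentage within 1 kb of a transcript start in 4 equal bins of the dm-αKG-only peaks by −log10 q in the dm-αKG list. The share called is 2.25% in the weakest and 11.7% in the strongest bin, whereas the share near transcript starts is 35.4% and 11.7%.

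Some members were flanks of sites that were also open in control. At 3255 members (17.4%), the dm-αKG interval touched a control interval elsewhere along its length. Of these, 51.3% lay within 1 kb of a transcript start and 108 (3.32%) were called more accessible. The other 15448 members stood in intervals that touched no control interval, with 12.4% near transcript starts and 867 (5.61%) called. The median member was 3982 bases from the nearest control interval, and the share called was 3.20% for members with fewer than 200 bases, 5.51% at 1 to 10 kb and 6.56% at 10 to 100 kb. Just inside the rule, members near CALML6, in NAV1 and in ZFTA directly adjoined a control interval with 0 bases between, and their log2 fold changes were 0.49, 0.59 and 0.64. Just outside it, peaks in RNASEH2C, KIRREL3 and TPCN1 overlapped a control interval by 1 bp and had 0.45, 0.75 and 0.79.

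The set lay away from promoters more often than the peaks of both lists. Of the members, 19.2% had their centre within 1 kb of a protein-coding transcript start, against 34.1% of the peaks of both lists and 10.2% of the control list only. The share was 13% for members without a control interval within 200 bp and 8.76% for those beyond 1000 bp, so that it rested in part on members close to a control interval. Introns held 36.3%, stretches between genes 28.1% and lncRNA gene bodies 8.95%, against 27%, 24.5% and 7.03% of the peaks of both lists. The called members were placed similarly to the set, with 15.7% at promoters, but 20.0% of them lay over 100 kb from any protein-coding transcript start, against 15% of all members and 10.4% of the peaks of both lists. The median distance was 13570 bp. Position was not used by the rule, but neighbouring peaks are not independent, and these shares are given without a test.

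**Figure D4:**
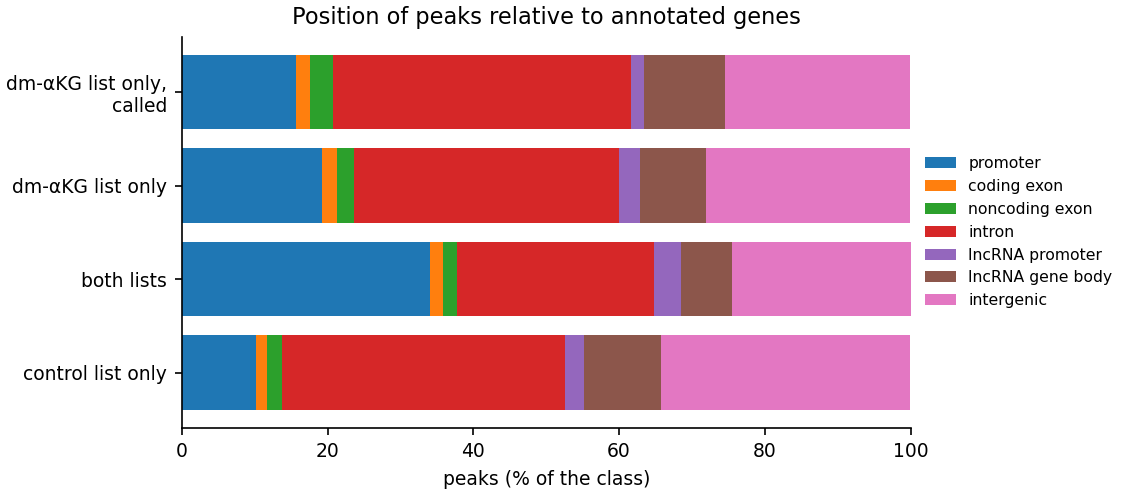
Percentage of peaks in each class by position relative to annotated genes, with 1 bar per class. Promoters hold 19.2% of the dm-αKG-only peaks, 34.1% of the peaks of both lists and 10.2% of the control-only peaks.

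Promoter members were more accessible than the rest of the set, and their change was of a similar size. The 3591 members within 1 kb of a transcript start had medians of 36.0 in control and 48.4 with dm-αKG, a median log2 fold change of 0.43, and 153 calls (4.26%). The 15112 others had 25.7 and 33.4, a median of 0.39, and 822 calls (5.44%). In sequence, the members were poorer in G and C than the peaks of both lists, with a median GC content of 52.5% against 57.0%, and close to the 51.0% of the control list only. CpG dinucleotides stood at 0.273 of the number that their base content gives, against 0.380 and 0.229. Members were 200 bp wide in 98.0% of cases, against 11.4% for peaks of both lists, which are wider where summits of both lists were merged.

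Across chromosomes, the share of peaks that belonged to the set ran from 9.78% on X to 13.2% on chromosome 13. The share of control-only peaks varied more, from 8.35% on chromosome 19 to 15.1% on X. The share of the set was below that of the control-only peaks on 18 of 23 chromosomes, equal on 1, and above it on chromosomes 14, 17, 19 and 22. The median distance from a member to the next was 23293 bp, and 6898 members (36.9%) had another within 10 kb.

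AP-1, NRF2 and FOX motifs were more frequent in the set than in either of the other classes. The AP-1 motif occurred in 1313 members, 7.02% (95% Wilson interval 6.66 to 7.40), against 4.18% of the peaks of both lists and 4.23% of the control list only. The NRF2 motif occurred in 448 members, 2.40% (2.19 to 2.62), against 1.41% and 1.04%, and the FOX motif in 719 members, 3.84% (3.58 to 4.13), against 2.72% and 2.75%. In all peaks of the table, the shares were 4.50%, 1.47% and 2.85%. When the peaks of both lists were weighted to the GC content of the set, their shares were 4.85% for AP-1, 1.56% for NRF2 and 3.50% for FOX, which for FOX is closer to the share in the set than without the weighting. The intervals cover counting error only. A match is a run of letters and not evidence of binding.

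The motif shares were higher again among the members called more accessible. AP-1 occurred in 16.9% of the 975 (14.7 to 19.4), NRF2 in 7.59% (6.09 to 9.42) and FOX in 8.62%. Seen from the motif, 165 members with AP-1 (12.6%) were called, against 4.66% of those without, 74 with NRF2 (16.5% against 4.94%) and 84 with FOX (11.7% against 4.95%). The peaks of both lists that were called more accessible held the motifs at like shares, 18.0%, 9.02% and 10.4%, so among called peaks the shares in the set were not above those in both lists. An AP-1 match lies inside some NRF2 matches, and AP-1 without NRF2 occurred in 5.02% of members and 3.10% of the peaks of both lists. By strength in the list, AP-1 occurred in 4.30% of the weakest and 9.45% of the strongest of the 4 bins.

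**Figure D5:**
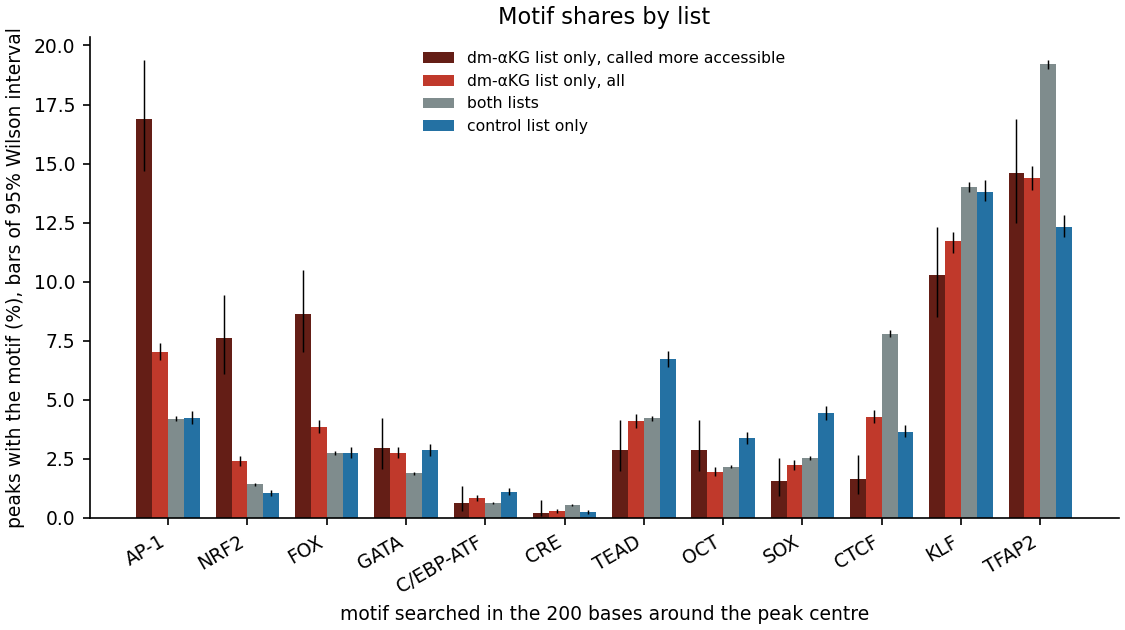
Percentage of peaks with each motif in the 200 bases around the centre, for the called dm-αKG-only peaks, all dm-αKG-only peaks, peaks of both lists and control-only peaks, with vertical lines for 95% Wilson intervals. AP-1, NRF2 and FOX are highest in the called dm-αKG-only peaks (16.9%, 7.59% and 8.62%), and CTCF and TFAP2 are highest in the peaks of both lists (7.80% and 19.2%).

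By unweighted share, none of the other 11 motifs was most frequent in the set. The GATA motif (AGATAAG) occurred in 2.76% of members, against 1.88% of the peaks of both lists and 2.86% of the control list only. Weighted to the GC content of the set, the GATA shares were 2.48% in the peaks of both lists and 2.60% in the control list only, both below the set. Motifs of the pluripotency factors were below the control list only, with 1.95% against 3.38% for OCT (ATGCAAAT) and 2.22% against 4.43% for SOX (ACAATGG), and so was TEAD (GGAATGT), with 4.08% against 6.72%. Motifs of GC-rich promoters and insulators were below the peaks of both lists, with 4.28% against 7.80% for CTCF (AGNNGGCGC), 14.4% against 19.2% for TFAP2 (GCCNNNGGC), 11.7% against 14.0% for KLF (GGGNGTGG) and 0.294% against 1.13% for ETS (CCGGAAGT). Weighted to the GC content of the set, the shares in the peaks of both lists were 5.54% for CTCF, 14.9% for TFAP2, 12.8% for KLF and 0.856% for ETS. CRE (TGACGTCA) and TFE (TCACGTGA) were rare, at 0.267% and 0.139%, against 0.534% and 0.299%. The C/EBP-ATF composite (TGATGNAAT) occurred in 0.823% of members and 1.10% of the control list only.

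The called members with a motif and the smallest adjusted p show the range of levels. At the NRF2 site in FGF14, which encodes an intracellular fibroblast growth factor, the counts were 6.26, 9.04 and 20.6 in control and 52.3, 51.3 and 58.4 with dm-αKG, for a log2 fold change of 2.24 ± 0.33 (SE; adjusted p = 9.98e-08, edgeR). At the CRE site in ANKS1A (chr6:35048629-35048828), an adaptor of receptor tyrosine kinases, they were 58.1, 60.8 and 66.8 in control and 134, 118 and 163 with dm-αKG. At the C/EBP-ATF site 156236 bp from LHX8 (chr1:74972098-74972297), they were 31.3, 37.8 and 30.4 in control and 76.0, 82.1 and 58.4 with dm-αKG. None of these 3 sites had overlapping treatments, and the FGF14 site had under 10 normalized counts in 2 of 3 control libraries.

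Members were spread over most genes. Each peak was assigned to protein-coding genes by a regulatory domain of 5 kb upstream and 1 kb downstream of the gene start, extended up to 1 Mb to the neighbouring domains, so that a peak can count for more than 1 gene. Of 19209 genes with a peak in their domain, 11977 had at least 1 member, 1535 at least 1 called member, 184 at least 2 and 22 at least 3. The genes with the most called members were COG6, TMEM132D and FOXO1 with 4 each followed by 19 genes with 3 each, of which SLC7A13, PSKH2 and RHD had the largest share of called members among their peaks. COG6 and FOXO1 are neighbours on chromosome 13 and share these sites, and SLC7A13 and PSKH2 on chromosome 8 share theirs.

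The domain of FOXO1, a forkhead factor that insulin signalling keeps out of the nucleus, held 15 members among 54 peaks. Their median log2 fold change was 0.75, from -0.26 to 1.95. The site with the FOX match shown above, 67020 bp from a transcript start of FOXO1, had 4.47, 10.7 and 3.64 in control and 27.2, 33.4 and 15 with dm-αKG. A site 330082 bp from FOXO1 (chr13:40232582-40232781) had 17.9, 23.8 and 13.4 in control and 50.2, 69.3 and 71.8 with dm-αKG (log2 fold change 1.72). Both had no overlap between treatments. At TMEM132D, 9 of 50 peaks were members, with a median log2 fold change of 0.74.

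Lists of genes were followed to see where in known pathways the set lay. Over all peaks, 10.9% were members, 11.7% were in the control list only and 1.96% were called less accessible. Over all members, the median log2 fold change was 0.40 and 85.4% were higher. Of the members, 33.7% had all dm-αKG values above all control values and 5.21% were called more accessible. The counts of each list are to be read against these shares. In the domains of 25 NRF2 target genes, 43 of 400 peaks (10.8%) were members and 2 were called more accessible. Of these, the site with the NRF2 match in GCLC, which encodes the catalytic subunit of the enzyme that begins glutathione synthesis, lay 1102 bp from a transcript start. It had 17.9, 19.7 and 7.29 in control and 43.7, 75.7 and 37.4 with dm-αKG, and the log2 fold change was 1.73 ± 0.312 (SE; adjusted p = 1.41e-05, edgeR). The other lay 3779 bp from FTH1, the ferritin heavy chain, with 13.4, 31.2 and 23.1 in control and 73.1, 41.1 and 34.4 with dm-αKG. The share of members near NRF2 targets was thus that of all peaks. Of the 43, 35 (81.4%) were higher, and 12 (27.9%) had all dm-αKG values above all control values. Their median log2 fold change was 0.28 and 4.65% were called, so each of these values was below that over all members.

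Around the genes of 10 AP-1 subunits, 24 of 232 peaks (10.3%) were members, all 24 with higher counts. Of these, 18 (75.0%) had all dm-αKG values above all control values, against 33.7% of all members. Among the 24, 3 were called (12.5%, against 5.21%). The median log2 fold change of these 24 was 0.71, the highest of the 10 lists. The called ones were 26923 bp from FOS (1.10) and in the domain of FOSL2, at 220974 bp (1.27) and near BABAM2 (1.02). At the FOS site, the counts were 28.6, 18.9 and 14.6 in control and 39.4, 47.5 and 50.9 with dm-αKG. Around 15 genes of the integrated stress response, 34 of 352 peaks (9.66%) were members, and 1 was called, 24703 bp from DDIT4, an inhibitor of mTORC1 (1.02).

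FOX factor genes had the highest share of members of the 10 lists, 73 of 490 peaks (14.9%), against 11.4% in the control list only. Of the 73, 65 were higher (89.0%, against 85.4% of all members) and 9 were called (12.3%, against 5.21%). The FOXO1 domain gave 15 of the 73 members and 4 of the 9 calls. The others were in the domains of FOXP1 (2 calls, log2 fold changes of 1.63 and 1.01), FOXA1 (1.76), FOXC1 (1.44) and FOXA2 (1.04). The nearest transcript start to the call in the FOXA1 domain was that of SSTR1, at 20232 bp. The call in the FOXC1 domain lay in an intron of GMDS, 5676 bp from a start of that gene. The site in the FOXA2 domain, 194176 bp from the FOXA2 start, held the NRF2 match shown above. It had 20.6, 43.6 and 19.4 in control and 50.2, 77.0 and 52.4 with dm-αKG. At FOXP1, the site at 11957 bp had 9.84, 14.0 and 0 in control and 27.2, 32.1 and 21.0 with dm-αKG.

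Primitive endoderm genes were the next by share, with 40 of 296 peaks (13.5%) in the set against 9.46% in the control list only, and 5 calls (12.5% of the 40, against 5.21% of all members). Of the calls, 3 were in the domain of GATA6, a factor that sets up primitive endoderm. The site 53546 bp from GATA6 (chr18:22224379-22224578) had 17.0, 13.2 and 23.1 in control and 59.5, 60.3 and 58.4 with dm-αKG, and the log2 fold change was 1.77 ± 0.282 (SE; adjusted p = 8.60e-07, edgeR). The other GATA6 sites had log2 fold changes of 1.74 and 1.41. Another call was the FOXA2 site, which the FOX list also holds. The strongest promoter peaks of the 4 primitive endoderm markers had log2 fold changes between -0.21 and 0.26, and their part in these results was not tested.

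In the domains of naive pluripotency genes, 69 of 590 peaks (11.7%) were members and 3 were called. Of the 590, 81 (13.7%) were in the control list only, against 11.7% of all peaks. Peaks of any class called less accessible numbered 21 of the 590, where 1.96% of all peaks were called in that direction. The called members lay 361 bp from KLF5, a Krüppel-like factor of naive cells (50.1, 53.4 and 43.7 in control, 110, 135 and 73.3 with dm-αKG), 5165 bp from DPPA3 (log2 fold change 1.06) and in the domain of TFCP2L1 (1.35). At TFCP2L1, 1 dm-αKG library had 64.4 and the others 27.2 and 25.7. Around 15 trophoblast factors, 61 of 614 peaks (9.93%) were members, with 5 calls, at 349282 bp from GATA3 (1.56), 797635 bp from TFAP2A (1.25), 6256 bp from GATA2 (1.13), 979 bp from TP63 (1.10) and in the domain of ENPEP (1.03). The GATA2 site had 38.5, 28.8 and 54.7 in control and 85.3, 83.4 and 91.3 with dm-αKG.

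The remaining lists had 1 call each. Around genes of mesoderm and epithelial-mesenchymal transition, 39 of 340 peaks (11.5%) were members, and the call lay 16170 bp from SNAI1, a repressor of E-cadherin, at the FOX match shown above. It had 7.16, 14.8 and 6.07 in control and 32.3, 29.5 and 28.4 with dm-αKG. Around genes of the TCA cycle and glutamate metabolism, 52 of 474 peaks (11.0%) were members, and the call was in the domain of SLC1A3, a glutamate and aspartate transporter (1.26). Around the α-ketoglutarate dioxygenases, 70 of 607 peaks (11.5%) were members. The call there, in the domain of KDM4A, a histone demethylase, was 84 bp from a transcript start of PTPRF, a receptor phosphatase, and held the AP-1 match shown above. It had 43.8, 41.1 and 69.2 in control and 115, 123 and 88.3 with dm-αKG (log2 fold change 1.13). The shares of both metabolic lists were within 1 percentage point of the 10.9% over all peaks.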

How the data were processed

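ATAC-seq libraries of 3 control and 3 dm-αKG cultures were grouped by the treatment in the labels. The authors ran the ENCODE ATAC-seq pipeline separately per treatment (Bowtie 2, hg38, MACS2, irreproducible discovery rate), with bcl2fastq 2.20.0.422 before it. The authors deposited 1 peak list per treatment with a score, a fold enrichment ratio over the background and a q-value as −log10 for each summit. These lists hold 150270 summits in 98415 intervals for dm-αKG and 154385 in 100523 for control. The authors then took 200 bp around each summit, merged both lists with bedtools 2.28.0 and deposited raw counts per merged peak and library, without normalization. A site near the threshold of a list can therefore be missing from it while its counts differ little.

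Overlaps were computed with bedtools 2.31.1. Counts were fitted with edgeR 4.0.16 in R 4.3.3 (TMM scaling, quasi-likelihood test, treatment as the only term, all 171517 peaks, Benjamini-Hochberg adjustment over all of them). Calls required a log2 fold change beyond 1 in either direction and an adjusted p below 0.01. DESeq2 1.42.0 was an alternative. Normalized counts are counts scaled by library total and TMM factor. An exact permutation test of 3 against 3 libraries cannot give a p below 0.1. Of the members, 15719 (84.0%) had at least 10 counts in every library, and none was filtered out. The fits and the motif search were tested on simulated data.

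Genes were taken from GENCODE 44, and sequences from the hg38 genome, whose chromosome lengths hold all peaks. Exon sequence outside coding parts is called untranslated. The 14 motifs were searched on both strands in 200 bases around the centre with Python 3.11.15. Distances are from the peak centre to the nearest start of a protein-coding transcript.

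The members, the motifs and the 10 gene lists were chosen with earlier results of these data known. Named members were the 8 called ones without overlap and with the smallest adjusted p, the 6 with the highest mean with dm-αKG, the 6 called promoter members with the largest log2 fold change, the 3 with the lowest, the called member with the smallest adjusted p for each of 5 motifs (none from chromosome 8), the 6 genes with most called members, all called members of the gene lists, and 3 peaks on each side of the rule's border. The member with 0 counts in control and those decided by 1 library were named after their values were seen. Of the gene lists, 1 called member is not reported here.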

Additional observations from a re-analysis of the deposited data

How the results depend on the processing

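The number of members was 19049 when intervals had to cover at least 50% of a peak, 15484 without a control interval within 200 bp, 12888 beyond 1000 bp and 22621 with 200 bp around the summits. Members called more accessible numbered 501 with DESeq2, which gave an adjusted p for 17445 of them, 1545 without the fold limit, and 664 to 1002 with 1 library left out, of which 548 to 756 were among the 975. Members called less accessible numbered 10 with summits, 2 with at least 10 counts in every library, 11 without the fold limit, 2 at an adjusted p below 0.05, and 1 to 4 with 1 library left out. The median log2 fold change was 0.37 with at least 10 counts in every library, and kept its sign throughout. The share of members within 1 kb of a transcript start was 13% without a control interval within 200 bp, 8.76% beyond 1000 bp and 22.7% with summits, and 32.7% lay within 5 kb. In 100 bases around the centre, motif shares were 4.51% for AP-1, 1.55% for NRF2, 0.150% for CRE, 0.465% for C/EBP-ATF, 2.06% for FOX, 2.30% for TEAD, 1.13% for OCT, 1.13% for SOX, 6.77% for KLF, 1.28% for GATA, 9.21% for TFAP2, 2.76% for CTCF, 0.160% for ETS and 0.0642% for TFE, as a window with fewer bases gives. Of 27 named members with 290 values under the alternatives, 279 kept direction and call, 9 lost the call and 2 changed sign. Both sign changes came without dm-αKG replicate 1, at the lncRNA start 126528 bp from GOSR1 (-0.00) and at HSF1 (-0.15). With each of the 6 libraries left out in turn, these 2 members ranged from -0.00 to 0.23 and from -0.15 to 3.00. No value was available with DESeq2 for TTC5 and HSF1. The same held with at least 10 counts in every library for TTC5, ZNF546, FGF14, HECW1 and ERI1.

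Whether replicate numbers pair the samples could not be settled. Deviations from the treatment means correlated at -0.0163, 0.00208 and 0.0206 for the 3 numbers. These values cannot decide it, as counting error in single peaks lowers such correlations. With a replicate block, 931 members were called more and 2 less accessible. The raw medians of the set were 23.0 to 33.0 counts in the control libraries and 24.0 to 49.0 in the dm-αKG libraries, and the effect of depth on membership was not tested.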
